A study of Homo sapiens with 20 samples.

Results

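The genes of the phagocyte NADPH oxidase considered here were NCF1, NCF4, CYBB, CYBA, RAC1, RAC2 and HVCN1. Every probe set that lists 1 of these 7 genes and no other gene in the annotation of the Human Genome U133 Plus 2.0 array was taken. This gave 16 of the 41097 probe sets with 1 gene symbol, namely 4 each for CYBB and RAC1, 2 each for CYBA, NCF4 and RAC2, and 1 each for NCF1 and HVCN1. Of these, 15 reached a mean log2 intensity of 3 in every line, the limit for testing,, and 1 probe set of CYBB (217431_x_at, 2.34 to 2.87 over the 20 arrays) was not. Another probe set lists NCF1 together with its near-identical pseudogenes NCF1B and NCF1C and was left out. The x_at suffix of the NCF1 probe set that was kept (214084_x_at) marks probes that can bind other transcripts as well, so the share of the pseudogenes in its signal is uncertain.

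All arrays came from U937T, a human monocytic leukemia line in which tetracycline (tet) keeps a transgene silent. The EVI1 clones E10 and E14 (U937T_EVI1-HA) carry the cDNA of the transcription factor EVI1 with an HA tag under this control, and they were cultured without tet, which induces EVI1, or with tet, which represses it, for 6, 12, 24 and 48 h. The control lines were P2 (U937T_vec), a clone with the empty vector, and parental U937T, cultured without or with tet for 48 h. There was 1 array per line, time and condition, so E10 and E14 stood as replicates of each other, as did P2 and U937T. The p-values rest on the spread that remains once a constant difference between lines is taken out. That spread is pooled over all 10 groups of arrays. Levels are log2 intensities, on which 1 unit is a 2-fold difference. A response is the log2 level without tet minus that with tet in the same line, and the EVI1-specific response is that of E10 and E14 minus that of P2 and U937T at 48 h.

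The oxidase of neutrophils, monocytes and macrophages passes electrons from NADPH across the membrane to oxygen and so makes the superoxide of the respiratory burst. Its membrane core, flavocytochrome b558, consists of CYBB (gp91phox, the subunit that carries the electrons) and CYBA (p22phox, its stabilizing partner). On activation, cytosolic subunits join this core, among them the organizer NCF1 (p47phox) and the phosphoinositide-binding NCF4 (p40phox), together with a GTP-loaded Rac protein, which is largely RAC2 in human neutrophils and RAC1 in monocytes. HVCN1 is a voltage-gated proton channel that offsets the charge moved by the electrons. Loss of CYBB, CYBA, NCF1 or NCF4 underlies forms of chronic granulomatous disease. In maturing myeloid cells PU.1 and interferon regulatory factors are known activators of oxidase genes.

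The genes lie apart in the human genome (RefSeq, GRCh38.p14), at chr7:74774011-74789315 (NCF1), chr22:36861006-36878015 (NCF4), chrX:37780059-37813461 (CYBB), chr16:88643289-88651053 (CYBA), chr7:6374527-6403967 (RAC1), chr22:37225270-37244269 (RAC2) and chr12:110648686-110704952 (HVCN1). Promoter sequence from RefSeq was used for NCF1, CYBA and CYBB, of which NCF1 and CYBA responded to tet withdrawal and CYBB did not pass the test. The 250 bases before each start site are given 5′ to 3′ on the strand of the gene, with matches to the searched motifs in capitals. They lie at chr7:74773761-74774010 on the plus strand for NCF1, chr16:88651054-88651303 on the minus strand for CYBA and chrX:37779809-37780058 on the plus strand for CYBB.
NCF1: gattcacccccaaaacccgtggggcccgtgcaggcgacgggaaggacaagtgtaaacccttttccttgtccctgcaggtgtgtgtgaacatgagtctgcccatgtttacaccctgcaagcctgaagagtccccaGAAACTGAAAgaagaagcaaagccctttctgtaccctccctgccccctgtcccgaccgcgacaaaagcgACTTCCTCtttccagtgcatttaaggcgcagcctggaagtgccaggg
CYBA: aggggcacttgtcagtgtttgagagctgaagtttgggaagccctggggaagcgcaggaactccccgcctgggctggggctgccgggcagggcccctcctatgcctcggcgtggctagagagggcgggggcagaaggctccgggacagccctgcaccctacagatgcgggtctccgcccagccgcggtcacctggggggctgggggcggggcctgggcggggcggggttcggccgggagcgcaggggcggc
CYBB: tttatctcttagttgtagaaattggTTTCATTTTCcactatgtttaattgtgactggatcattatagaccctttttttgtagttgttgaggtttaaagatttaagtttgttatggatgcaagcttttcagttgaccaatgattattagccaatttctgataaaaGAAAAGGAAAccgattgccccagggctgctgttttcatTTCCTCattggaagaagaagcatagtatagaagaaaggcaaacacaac

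Both strands, from 250 bases before to 50 bases after the start, were searched for GAGGAA and its extension GAGGAAGT (forms of the site of PU.1 and other ETS factors), a pair of GAAA separated by any 2 bases (interferon regulatory factors), and ACAAGATA and its extension GACAAGATA (first zinc finger domain of EVI1). Counting the base before the start as -1, GAGGAA matched once in NCF1 (-45 to -40) and once in CYBB (-48 to -43), each time on the strand opposite to the gene. In NCF1 the match was part of a GAGGAAGT match (-47 to -40). The paired GAAA motif matched once in NCF1 (-116 to -107) and 2 times in CYBB (-225 to -216 and -86 to -77). None of the 5 motifs matched in CYBA, and neither EVI1 motif matched in any of the 3 windows. Of 35116 promoters of this length, 27.85% held GAGGAA, 2.59% GAGGAAGT, 3.57% the paired GAAA motif, 0.46% ACAAGATA and 0.1% GACAAGATA. The matches are letters of the reference and not measured sites.

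EVI1 is transcribed from the MECOM locus, and its probe set 221884_at lay between 8.52 and 10.51 on the 8 arrays of E10 and E14 without tet, against 7.06 to 7.34 on the 8 with tet. The other 4 MECOM probe sets lay between 2.38 and 3.68 on all 20 arrays and showed no such separation. The level of 221884_at was 5.91 without and 6.90 with tet in P2, and 6.53 without and 6.48 with tet in U937T. Of the monocytic markers, LYZ (11.20 to 12.35), CEBPA (11.26 to 11.89) and SPI1 (8.85 to 10.29) had high values on all 20 arrays, while CD14 (3.77 to 4.40) and FCGR1A (3.13 to 3.78) stayed near the filter limit. The mean over 9 monocytic and myeloid markers lay between 7.54 and 8.29 in E10 and E14 without tet, between 7.45 and 7.98 in E10 and E14 with tet, between 7.97 and 8.04 in P2 and U937T without tet, and between 7.44 and 7.54 in P2 and U937T with tet. Of the 9, ITGAM, CSF1R and CD4 were called higher in E10 and E14 at 48 h and ITGAM alone in P2 and U937T. The responses of CSF1R (0.61) and CD4 (0.18) in P2 and U937T were not called. Their EVI1-specific differences of 0.35 for CSF1R (limma, adjusted p = 0.74) and 0.48 for CD4 (adjusted p = 0.15) did not pass. The mean over 7 lymphoid markers lay between 5.15 and 5.47 in E10 and E14 without tet and between 5.11 and 5.28 with tet, and between 5.31 and 5.48 in P2 and U937T without tet and between 5.28 and 5.40 with tet. Of these 7, CD3E (1.17), CD79A (0.43) and CD79B (0.49) were called higher in E10 and E14 at 48 h. In P2 and U937T 0 were called, with 2 higher at an unadjusted p under 0.05 (limma). CD3E passed in the EVI1-specific comparison (0.89, limma, adjusted p = 0.014). The part of these cell type markers in the oxidase results was not tested. Across the arrays the 3′ minus 5′ difference of the actin and GAPDH control probe sets, a sign of RNA integrity, ranged between 0.19 and 1.52 with a median of 0.71. The E14 arrays at 24 h stood apart with 1.40 without tet and 1.52 with tet. Calls that rest on them are also given without the E14 arrays at 12 and 24 h. The E14 arrays at 12 h, left out together with them, had 0.46 without tet and 1.02 with tet and did not stand apart.

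At 48 h after tet withdrawal, 6 of the 15 oxidase probe sets were higher and 0 lower in E10 and E14 (limma, Benjamini-Hochberg adjusted p under 0.05), where 13% of all 35610 probe sets were higher and 11.5% lower. In P2 and U937T, which carry no EVI1 transgene, 5 of 15 were higher and 0 lower, where 3.31% of all probe sets were higher and 2.61% lower. In both kinds of line the called probe sets belonged to the same 4 genes, NCF1, NCF4, CYBA and RAC2. Also at an unadjusted p under 0.05, 0 of 15 were lower in either kind of line. The median response of the 15 probe sets was 0.20 in E10 and E14 and 0.29 in P2 and U937T, beside -0.03 and -0.02 over all probe sets. In bulk RNA a larger share of expressing cells cannot be told apart from more RNA per cell.

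**Figure D1:**
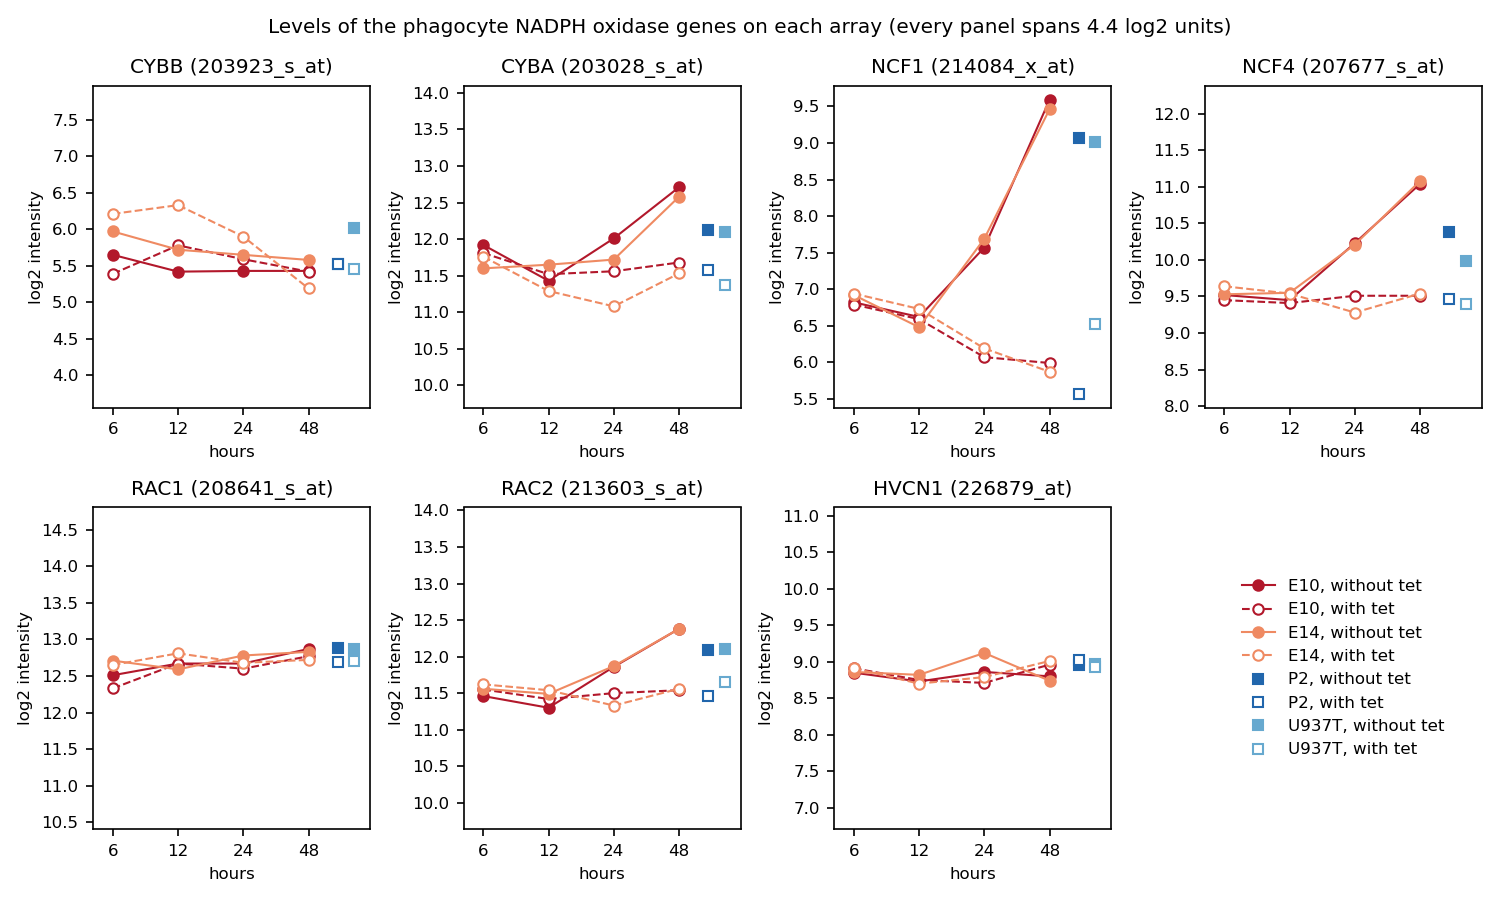
Log2 intensity (y axis) of 1 probe set per oxidase gene against hours of culture (x axis). Circles joined by lines are E10 and E14, squares to the right of the 48 h mark are P2 and U937T at 48 h, and filled symbols are cultures without tet. In the NCF1 panel the 4 filled 48 h symbols lie between 9.02 and 9.59 and the 4 open ones between 5.57 and 6.52, whereas in the HVCN1 panel all values lie between 8.70 and 9.12.

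NCF1, the organizer subunit, showed the largest response of the 15 probe sets in either kind of line. At 48 h its level (214084_x_at) was 9.59 without and 5.99 with tet in E10, and 9.46 without and 5.87 with tet in E14. In P2 it was 9.07 without and 5.57 with tet, and in U937T 9.02 without and 6.52 with tet. All 4 arrays without tet were thus above all 4 with tet by more than 2 log2 units. The response was 3.60 ± 0.18 (pooled SE, n = 2 lines) in E10 and E14, or 12.1-fold (limma, adjusted p = 3.8e-08). It ranked 14 of 35610 probe sets from the top. In P2 and U937T the response was 3.00 ± 0.18 (pooled SE, n = 2 lines), or 8.01-fold (limma, adjusted p = 1.4e-06). It ranked 3 of 35610. The EVI1-specific difference of 0.60 (95% confidence interval 0.06 to 1.14) did not pass (limma, adjusted p = 0.29). It depended on the control line, since P2 alone responded by 3.50 and U937T alone by 2.50. The difference was 1.10 (adjusted p = 0.018) without P2, against 0.09 (adjusted p = 0.92) without U937T.

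NCF1 also moved with time. At 6 h its level was 6.82 without and 6.79 with tet in E10, and 6.92 without and 6.94 with tet in E14. At 12 h it was 6.62 without and 6.59 with tet in E10, and 6.48 without and 6.73 with tet in E14. At these times the responses lay between -0.25 and 0.03, with no common direction. At 24 h the level was 7.57 without and 6.07 with tet in E10, and 7.69 without and 6.19 with tet in E14, so that both cultures without tet were above both with tet. The response at 24 h was 1.50 ± 0.18 (pooled SE, n = 2 clones, limma, adjusted p = 0.00013). That at 48 h was larger than that at 24 h by 2.09 ± 0.25 (pooled SE, limma, adjusted p = 0.0015). This was the only 1 of the 15 oxidase probe sets called for the change of the response between 24 and 48 h, where 1.01% of all probe sets were called higher and 0.621% lower. The test of this change lost its call without the E14 arrays at 12 and 24 h (2.09, adjusted p = 0.072), without E10 (2.09, adjusted p = 0.26) and without E14 (2.10, adjusted p = 0.18). For NCF4 the change was 0.71 (207677_s_at, limma, adjusted p = 0.051) and 0.66 (205147_x_at, adjusted p = 0.064), and it was called in 6 of 14 and 4 of 13 alternatives. With tet, NCF1 fell from 6 to 48 h by 0.93 ± 0.18 (pooled SE, n = 2 clones). This drop was the only call among the 15 probe sets (limma, adjusted p = 0.012), where 3.39% of all probe sets were lower and 2.8% higher. The drop was 0.81 in E10 and 1.06 in E14, and with either clone left out it was no longer called (-1.06 with adjusted p = 0.20 without E10, -0.81 with adjusted p = 0.21 without E14). Without tet the level at 48 h was above that at 6 h by 2.78 in E10 and 2.54 in E14, so the levels without and with tet moved in opposite directions over these hours.

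NCF4, the phosphoinositide-binding subunit, was read by 2 probe sets that gave similar values. For 207677_s_at, the level at 48 h was 11.04 without and 9.51 with tet in E10, 11.08 without and 9.54 with tet in E14, 10.38 without and 9.46 with tet in P2, and 9.98 without and 9.40 with tet in U937T. The 4 arrays with tet lay between 9.40 and 9.54, and the 2 arrays of the clones without tet lay above those of the control lines. For 205147_x_at, the level was 10.92 without and 9.46 with tet in E10, 10.88 without and 9.52 with tet in E14, 10.33 without and 9.45 with tet in P2, and 10.01 without and 9.21 with tet in U937T. The response in the clones was 1.53 ± 0.12 for 207677_s_at (SE, limma, adjusted p = 9.4e-07) and 1.41 ± 0.11 for 205147_x_at (adjusted p = 1.5e-06), that is 2.89-fold and 2.66-fold. In the control lines it was 0.75 ± 0.12 for 207677_s_at (limma, adjusted p = 0.0025) and 0.84 ± 0.11 for 205147_x_at (adjusted p = 0.0012), that is 1.69-fold and 1.79-fold. Without P2 the response of 207677_s_at in the control lines was no longer called (0.58, adjusted p = 0.10).

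NCF4 carried the only EVI1-specific call among the 15 oxidase probe sets, where 1.38% of all 35610 probe sets were called higher and 1.57% lower. For 207677_s_at the response of the clones exceeded that of the control lines by 0.78 ± 0.16 (SE, 95% confidence interval 0.42 to 1.13, limma, adjusted p = 0.022), or 1.72-fold. For 205147_x_at the difference was 0.57 (95% confidence interval 0.22 to 0.92) and did not pass (limma, adjusted p = 0.088). The call for 207677_s_at was lost with the 48 h arrays alone (0.78, adjusted p = 0.12), without the E14 arrays at 12 and 24 h (0.78, adjusted p = 0.069), without E10 (0.79, adjusted p = 0.45), without E14 (0.77, adjusted p = 0.55) and without U937T (0.61, adjusted p = 0.20). The difference itself lay between 0.61 and 0.95 over the alternatives, but those that change the filter, variance model or block cannot move it. At 24 h the level of 207677_s_at was 10.23 without and 9.51 with tet in E10, and 10.21 without and 9.28 with tet in E14, with a response of 0.83 ± 0.12 (SE, limma, adjusted p = 0.00048). At 6 and 12 h its 8 arrays of the clones lay between 9.41 and 9.64.

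CYBA, the membrane partner of CYBB, responded in the main probe set. At 48 h the level of 203028_s_at was 12.71 without and 11.68 with tet in E10, 12.58 without and 11.53 with tet in E14, 12.13 without and 11.58 with tet in P2, and 12.10 without and 11.37 with tet in U937T. The cultures without tet did not overlap with those with tet in either kind of line. The response was 1.04 ± 0.14 in the clones, or 2.05-fold (SE, limma, adjusted p = 0.00011), and 0.64 ± 0.14 in the control lines, or 1.56-fold (adjusted p = 0.018). The response of the control lines lost its call without any 1 of the 4 lines (0.55 to 0.73, adjusted p of 0.073 to 0.20). The EVI1-specific difference was 0.40 (95% confidence interval -0.03 to 0.83, limma, adjusted p = 0.39). The second CYBA probe set, 229445_at, was 7.35 without and 6.99 with tet in E10, 7.42 without and 7.00 with tet in E14, 6.99 without and 7.26 with tet in P2, and 7.00 without and 6.98 with tet in U937T. Here both clones were higher without tet, by 0.36 in E10 and 0.41 in E14, whereas the differences in P2 (-0.26) and U937T (0.02) had no common direction. Their response of 0.39 ± 0.13 (SE, limma, adjusted p = 0.043) lost its call without E10 (0.41, adjusted p = 0.37), without E14 (0.36, adjusted p = 0.44), with the 48 h arrays alone (0.39, adjusted p = 0.068) and from the 10 differences without minus with tet (0.39, adjusted p = 0.065). The difference between clones and control lines of 0.51 (95% confidence interval 0.11 to 0.90) did not pass (adjusted p = 0.20). Earlier, 203028_s_at lay between 11.29 and 11.92 on the 8 arrays of the clones at 6 and 12 h. At 24 h it was 12.01 without and 11.56 with tet in E10, and 11.72 without and 11.08 with tet in E14, which gave a response of 0.54 ± 0.14 (SE, limma, adjusted p = 0.023).

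CYBB, the catalytic subunit, did not pass the test in any comparison. Its tested probe sets had medians of 5.58 (203923_s_at), 4.80 (203922_s_at) and 3.46 (233538_s_at) over the 20 arrays. The medians of whole arrays were 5.25 to 5.35, so the signal of CYBB was modest and a change could be missed. The level of 203923_s_at at 48 h was 5.43 without and 5.42 with tet in E10, 5.58 without and 5.19 with tet in E14, 5.53 both without and with tet in P2, and 6.02 without and 5.45 with tet in U937T. The values without and with tet overlapped across the lines. The response was 0.20 in the clones (95% confidence interval -0.22 to 0.62, limma, adjusted p = 0.53) and 0.29 in the control lines (-0.14 to 0.71, adjusted p = 0.49). The probe set 203922_s_at was 4.79 without and 4.56 with tet in E10, 4.47 without and 4.97 with tet in E14, 5.14 without and 4.57 with tet in P2, and 4.80 without and 4.64 with tet in U937T. The clones thus moved in opposite directions, and the EVI1-specific difference of -0.50 (95% confidence interval -0.98 to -0.02) did not pass (limma, adjusted p = 0.32). The third tested probe set, 233538_s_at, ranged between 3.01 and 3.93 over the 20 arrays, with an EVI1-specific difference of -0.12 (adjusted p = 0.87). With tet, 203923_s_at in E14 was 6.21 at 6 h, 6.33 at 12 h, 5.90 at 24 h and 5.19 at 48 h, while in E10 it was 5.39, 5.78, 5.59 and 5.42 at the same times, so that E14 was above E10 until 24 h and below it at 48 h.

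RAC2, the Rac protein of neutrophils, rose in 1 of its 2 probe sets. At 48 h the level of 213603_s_at was 12.38 without and 11.54 with tet in E10, 12.38 without and 11.56 with tet in E14, 12.09 without and 11.46 with tet in P2, and 12.11 without and 11.65 with tet in U937T. The arrays without tet were above those with tet in all 4 lines, and the clones without tet were the highest. The response was 0.83 ± 0.10 in the clones, or 1.78-fold (SE, limma, adjusted p = 4.7e-05), and 0.54 ± 0.10 in the control lines, or 1.46-fold (adjusted p = 0.0076). The EVI1-specific difference of 0.29 (95% confidence interval -0.02 to 0.60) did not pass (limma, adjusted p = 0.40). The call in the control lines was lost with the 48 h arrays alone (0.54, adjusted p = 0.064), without E10 and without E14 (0.54, adjusted p = 0.13 each) and without P2 (0.46, adjusted p = 0.16). On the 8 arrays of the clones at 6 and 12 h the level lay between 11.30 and 11.62. At 24 h it was 11.86 without and 11.50 with tet in E10, and 11.87 without and 11.33 with tet in E14, with a response of 0.45 ± 0.10 (SE, limma, adjusted p = 0.011). Without tet its level at 48 h was above that at 6 h by 0.92 in E10 and 0.82 in E14, against -0.01 in E10 and -0.05 in E14 with tet.

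The other RAC2 probe set, 207419_s_at, was 9.81 without and 9.11 with tet in E10, 9.53 without and 8.88 with tet in E14, 8.96 without and 8.69 with tet in P2, and 9.34 without and 8.63 with tet in U937T. Its response in the clones, 0.68 ± 0.30, did not pass (SE, limma, adjusted p = 0.13), although each line was higher without tet. Over the 20 arrays its level ran against the 3′ minus 5′ difference (Pearson r = -0.84, Spearman rho = -0.83, arrays of 4 lines), whereas 213603_s_at did not (r = 0.09, rho = 0.13). With the 3′ minus 5′ difference as a covariate the response of 207419_s_at was 0.76 (adjusted p = 0.00064), with the 48 h arrays alone 0.68 (adjusted p = 0.012), and without the E14 arrays at 12 and 24 h 0.68 (adjusted p = 0.0092). The EVI1-specific difference was 0.19 (95% confidence interval -0.74 to 1.12, limma, adjusted p = 0.90).

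RAC1, the Rac protein of monocytes, did not pass in any of its 4 probe sets. At 48 h the level of 208641_s_at was 12.87 without and 12.77 with tet in E10, 12.83 without and 12.72 with tet in E14, 12.88 without and 12.69 with tet in P2, and 12.87 without and 12.71 with tet in U937T. The level of 208640_at was 12.67 without and 12.48 with tet in E10, 12.61 without and 12.46 with tet in E14, 12.50 without and 12.37 with tet in P2, and 12.51 without and 12.30 with tet in U937T. In both probe sets every line was higher without tet by 0.21 or less. The response in the clones was 0.10 for 208641_s_at (95% confidence interval -0.13 to 0.34) and 0.17 for 208640_at (-0.05 to 0.38), and their EVI1-specific differences were -0.07 (-0.40 to 0.27) and -0.01 (-0.31 to 0.30). The probe set 1567458_s_at ranged between 9.45 and 11.55, with its lowest values on the E14 arrays at 24 h (9.45 without tet and 9.47 with tet), and its level ran against the 3′ minus 5′ difference (r = -0.89, rho = -0.69, n = 20 arrays). The other RAC1 probe sets also varied with this difference. The r was -0.59 for 208640_at (rho = -0.66) and -0.56 for 1567457_at (rho = -0.50), while 208641_s_at rose with it (r = 0.56, rho = 0.64). The probe set 1567457_at ranged between 3.00 and 4.33 with no response in the clones at 48 h (0.00, 95% confidence interval -0.45 to 0.45).

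**Figure D2:**
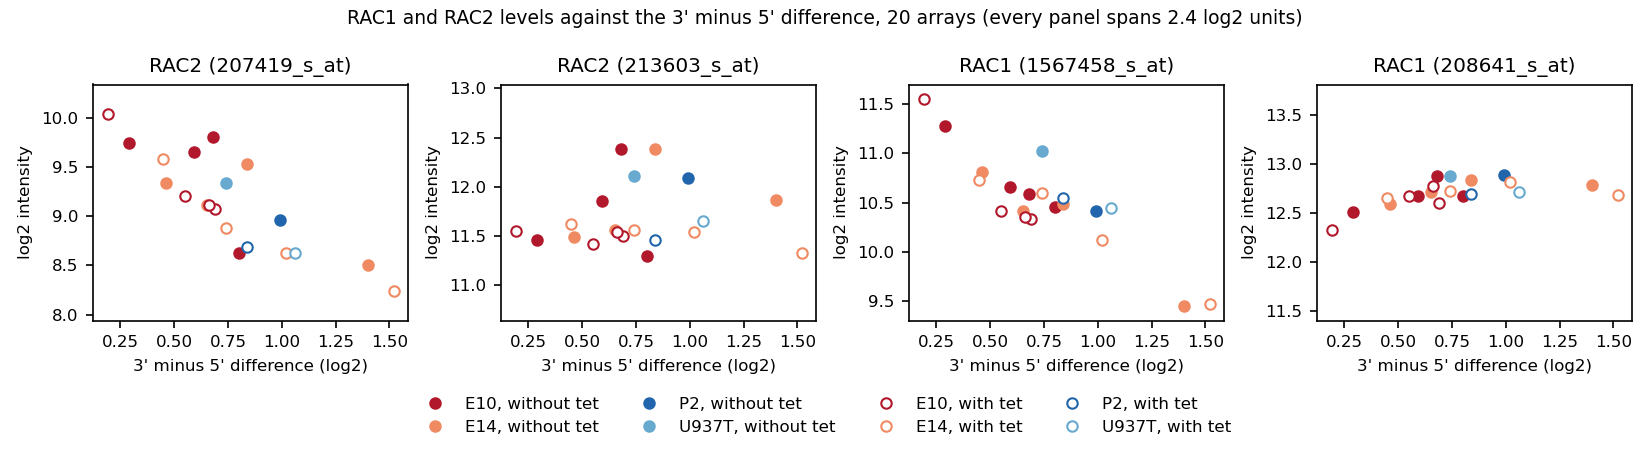
Log2 intensity (y axis) of 2 RAC2 and 2 RAC1 probe sets against the 3′ minus 5′ difference of the control probe sets (x axis, log2), 1 point per array. Filled points are cultures without tet, and colors mark the lines. The points of RAC2 207419_s_at and RAC1 1567458_s_at descend toward the E14 arrays at 24 h (1.40 and 1.52), while those of RAC2 213603_s_at do not. The level of RAC1 208641_s_at rose with the difference (Pearson r = 0.56).

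HVCN1, the proton channel, stayed within 0.42 log2 units on all 20 arrays (8.70 to 9.12). At 48 h its level (226879_at) was 8.80 without and 8.96 with tet in E10, 8.74 without and 9.01 with tet in E14, 8.96 without and 9.03 with tet in P2, and 8.97 without and 8.93 with tet in U937T. The clones were lower without tet, by 0.21 on average, but not beyond the test (95% confidence interval -0.42 to 0.00, limma, adjusted p = 0.15). At 24 h the order was the other way round, with 8.86 without and 8.71 with tet in E10 and 9.12 without and 8.79 with tet in E14 (response 0.24, adjusted p = 0.15). The EVI1-specific difference at 48 h was -0.19 (95% confidence interval -0.49 to 0.10, limma, adjusted p = 0.60).

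**Figure D3:**
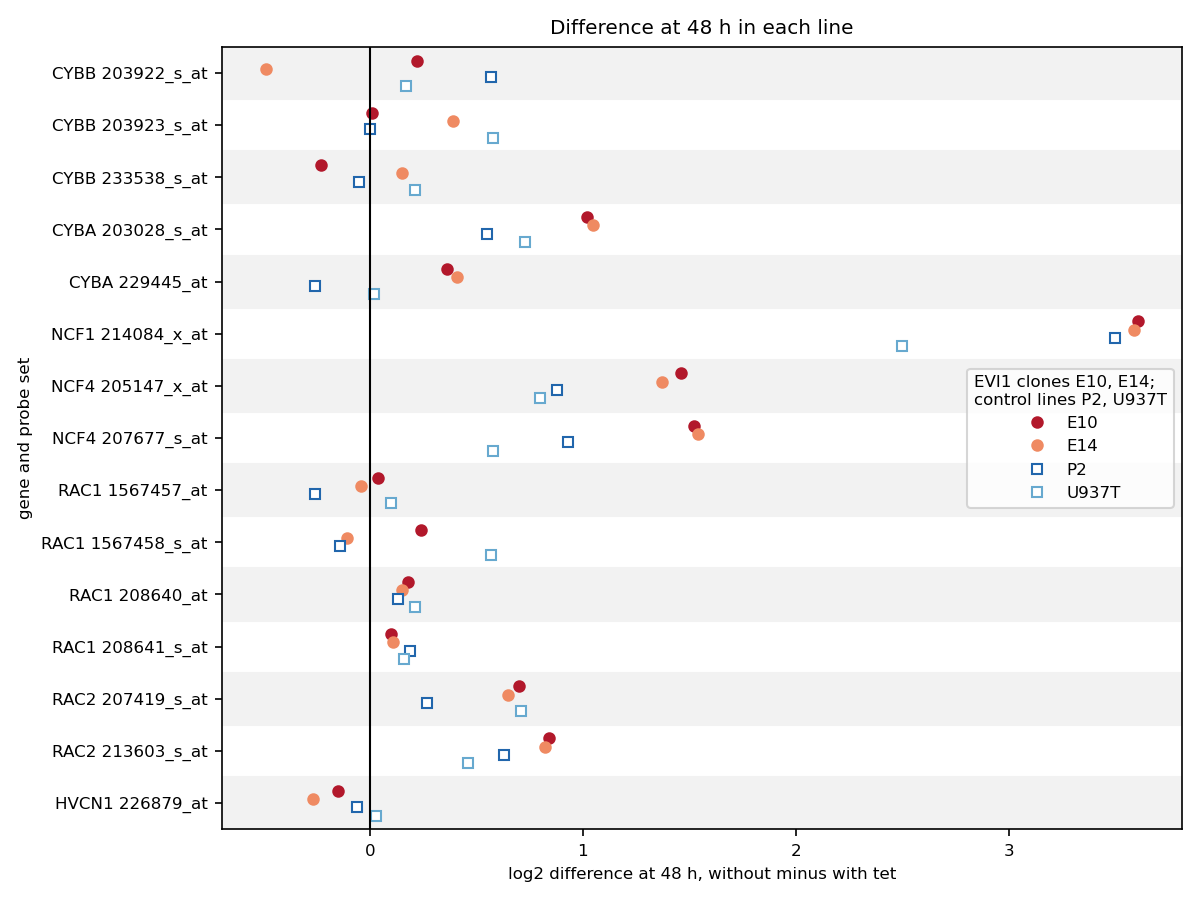
Log2 difference at 48 h, without minus with tet (x axis), for the 15 tested oxidase probe sets (y axis). Filled circles are E10 and E14, open squares P2 and U937T. All 4 lines lie to the right of 0 for NCF1 (2.50 to 3.61), both NCF4 probe sets, CYBA 203028_s_at and both RAC2 probe sets. They also do so, by 0.21 or less, for RAC1 208640_at and 208641_s_at, which were not called. The lines lie on both sides of 0 for CYBB 203922_s_at and HVCN1.

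In E10 and E14, 0 of 15 oxidase probe sets were called at 6 h and 0 of 15 at 12 h by limma (2 and 1 had an unadjusted p under 0.05), where 0% of all probe sets were called in either direction at 6 h and 0.0225% at 12 h. At 24 h 6 of 15 were higher and 0 lower, where 5.39% of all probe sets were higher and 6.34% lower. These were the same 6 probe sets as at 48 h, with responses at 24 h of 1.50 for NCF1, 0.83 and 0.75 for NCF4, 0.54 and 0.47 for CYBA and 0.45 for RAC2 213603_s_at. Without the E14 arrays at 12 and 24 h, 2 of the 6 remained called at 24 h, NCF1 and NCF4 205147_x_at. With either E10 or E14 left out, NCF1 alone remained.

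**Figure D4:**
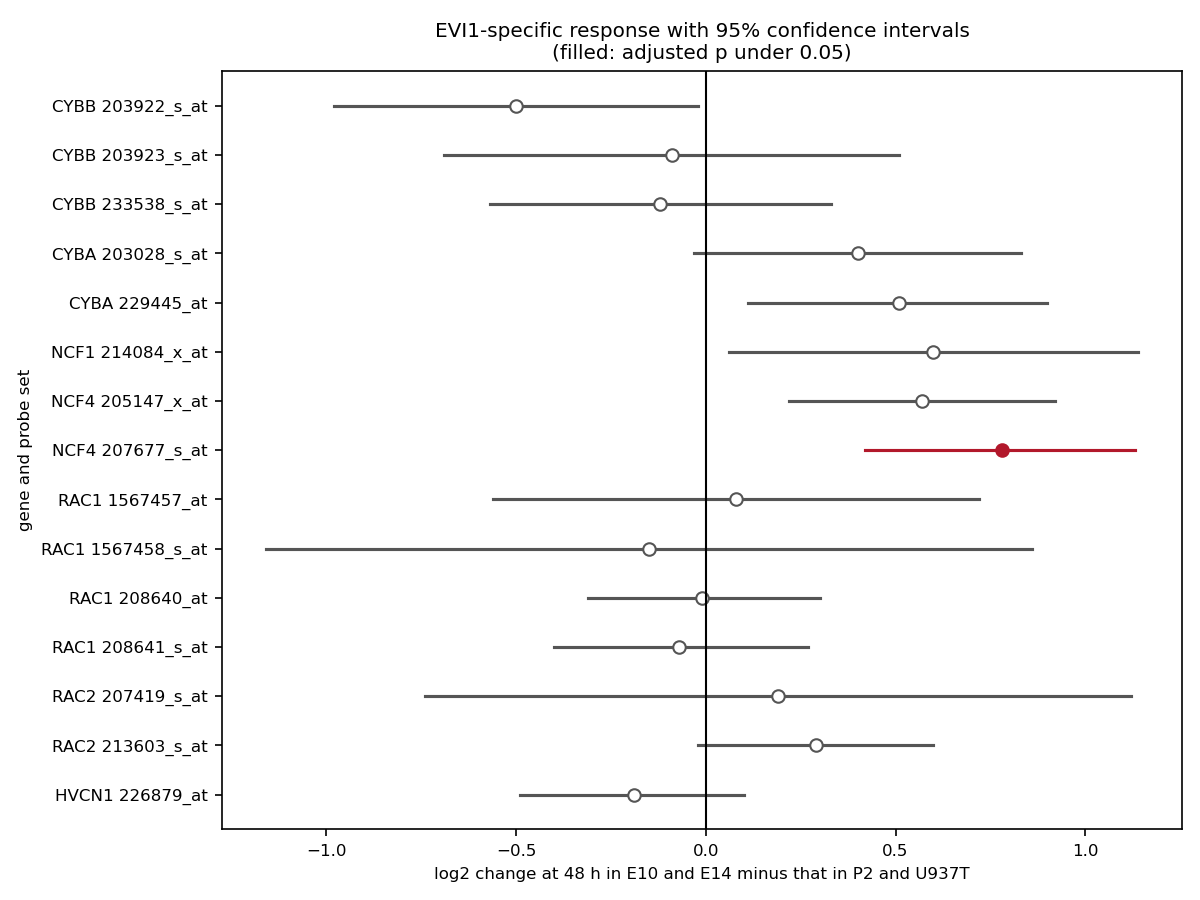
EVI1-specific difference at 48 h (x axis, log2), that is the response of E10 and E14 minus that of P2 and U937T, for the 15 tested oxidase probe sets (y axis). Points are limma estimates, bars are 95% confidence intervals, and the filled point passed an adjusted p of 0.05. NCF4 207677_s_at is the filled point at 0.78, and the intervals of NCF1, NCF4 205147_x_at and CYBA 229445_at lie above 0 without a call.

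Over the 10 differences without minus with tet, which share 4 lines, Pearson r was taken between responses, with 1 probe set per gene. It lay between 0.864 and 0.976 for the 6 pairs of NCF1, NCF4, CYBA and RAC2. These are the genes called higher on the same arrays. A high r among them follows from that choice and is no test of a link between them. Their r was 0.43 to 0.573 with CYBB, 0.252 to 0.535 with RAC1 and -0.205 to -0.405 with HVCN1. Between CYBB and RAC1 it was 0.768. The share of other gene pairs with such an r was not counted. The genes most like NCF1 in this measure were ECM1 (r = 0.994), LST1 (0.990) and SIGLEC5 (0.987). Those most like NCF4 were CYLD (0.993), SEMA4B (0.992) and WBP1L (0.991), and those most like CYBA were DCTN3 (0.983), RALY (0.982) and ETHE1 (0.979). For RAC2 they were GLIPR1, GPR18 and NAGK (0.991 each). Less close were the genes most like RAC1, which were TNFAIP3 (0.896), NPR1 (0.890) and FLJ16779 (0.887), and those most like CYBB, which were PDE6H (0.889), PLEKHG3 (0.880) and PRM2 (0.868). HVCN1 was most like PSMD2 (0.954), CIDEA (0.949) and PSMD14 (0.944). These were picked as the highest of all genes, and each value is a description over 10 differences.

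The genes around the oxidase were counted by the probe set with the highest mean of each gene in the same fit. Over all 17860 genes counted this way, 14.7% were higher and 13.2% lower in the clones at 48 h, 4.01% higher and 3.64% lower in the control lines, and 1.66% higher and 2.11% lower in the EVI1-specific comparison, and the counts of each list are to be read beside these shares. Of 8 measured genes of the other NADPH oxidases and their partners, 0 passed in the clones, in the control lines or in the EVI1-specific comparison at 48 h (limma). At an unadjusted p under 0.05, 1 was lower in the control lines and 0 moved in the clones or in the EVI1-specific comparison. Of 19 kinases, exchange factors and chaperones that act on the oxidase, 9 were higher and 1 lower in the clones and 4 higher and 0 lower in the control lines, and 1 was higher in the EVI1-specific comparison. That 1 was PRKCB, a protein kinase C that phosphorylates NCF1, with a difference of 0.59 ± 0.15 (SE, limma, adjusted p = 0.048). PREX1, a Rac exchange factor, rose by 1.32 in the clones and 0.64 in the control lines, and PIK3CG, the catalytic subunit of PI3Kγ, by 1.16 in the clones and 0.59 in the control lines. The list's median response was 0.21 in the clones and 0.23 in the control lines, beside -0.04 and -0.02 over all genes.

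Of 16 receptors that start the respiratory burst, 6 were higher and 1 lower in the clones, 6 higher and 0 lower in the control lines, and 3 higher and 2 lower in the EVI1-specific comparison. ITGAM, the CD11b chain of complement receptor 3, rose by 5.27 in the clones and 3.92 in the control lines, with an EVI1-specific difference of 1.35 ± 0.22 (SE, limma, adjusted p = 0.0047). The formyl peptide receptor FPR1 (1.04, adjusted p = 0.039) and CSF2RB, the common beta chain of the GM-CSF receptor (1.03, adjusted p = 0.0036), also had higher responses in the clones. Lower in the clones than in the control lines were the responses of the Fcγ receptor FCGR2A (-0.91, limma, adjusted p = 0.010) and the complement receptor C5AR1 (-1.78, adjusted p = 0.025). C5AR1 rose by 2.10 in the control lines (adjusted p = 0.00079), whereas its response in the clones was 0.32 (adjusted p = 0.47). The list's median EVI1-specific difference was 0.06, beside 0.00 over all genes.

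Of 15 measured transcription factors known to act on oxidase genes, 7 were higher and 1 lower in the clones, 2 higher and 1 lower in the control lines, and 0 passed in the EVI1-specific comparison (3 had an unadjusted p under 0.05 in limma). The interferon regulatory factors divided, since IRF2 rose by 1.55 in the clones and 0.89 in the control lines and IRF1 by 1.24 in the clones and 0.79 in the control lines, while IRF8 fell by 0.77 in the clones and 0.48 in the control lines (limma, adjusted p of 0.015 or less for each). SPI1, which encodes PU.1, had responses of 0.26 (adjusted p = 0.37) in the clones and -0.21 (adjusted p = 0.62) in the control lines at 48 h. At 24 h SPI1 was 9.17 without and 9.68 with tet in E10, and 8.97 without and 9.78 with tet in E14, and its response of -0.66 was called (limma, adjusted p = 0.036). That call was lost without the E14 arrays at 12 and 24 h (-0.51, adjusted p = 0.35), without E10 (-0.81, adjusted p = 0.12) and without E14 (-0.51, adjusted p = 0.41), settings chosen for SPI1 after its value was seen. Among 11 genes that supply NADPH, 3 were higher and 2 lower in the clones and 1 higher and 1 lower in the control lines. The glycolytic hexokinase HK2 fell by 1.61 in the clones and 0.55 in the control lines, the only EVI1-specific call in this list (-1.06 ± 0.13, SE, limma, adjusted p = 0.00092), while the glucose transporter SLC2A3 rose by 1.46 in the clones and 0.79 in the control lines. Of 22 genes of superoxide and peroxide metabolism, 4 were higher and 2 lower in the clones, 1 was higher in the control lines and 0 passed in the EVI1-specific comparison (1 higher and 2 lower at an unadjusted p under 0.05 in limma). The peroxidase PRDX6 rose by 0.67 in the clones and 0.34 in the control lines. In the clones the mitochondrial superoxide dismutase SOD2 fell by 1.16 and the peroxidase PRDX1 by 0.78. The control lines had responses of -0.57 for SOD2 (limma, adjusted p = 0.077) and -0.21 for PRDX1 (adjusted p = 0.45), which were not called. Their EVI1-specific differences of -0.59 for SOD2 (limma, adjusted p = 0.29) and -0.57 for PRDX1 (adjusted p = 0.14) did not pass. FCGR2A has the smallest change of the 5 receptors with an EVI1-specific call and was named after its value was seen. Beyond the genes with an EVI1-specific call, the choice of genes named from these lists followed a look at their values.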

How the data were processed

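RNA of 20 cultures was hybridized to Affymetrix Human Genome U133 Plus 2.0 arrays. Per the study's methods, the authors deposited log2 intensities made by Robust Multi-array Analysis, which corrects the background, normalizes quantiles and summarizes probes by median polish, and these were used without further normalization. Quantile normalization forces equal distributions on all arrays, so a shift of all genes together would not show. Of 54675 probe sets, 1801 list several symbols and 11777 list none, and both kinds were dropped. Of the rest, 35610 had a mean log2 of 3 or more, taken over cultures without and with tet, in both clones (24 and 48 h) and both control lines (48 h).

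Limma 3.58.1 in R 4.3.3 (lmFit, eBayes) was fitted to all arrays with 10 groups and the line as a block, with 8 residual and 4.73 prior degrees of freedom, and p-values were adjusted over 35610 probe sets by Benjamini and Hochberg. Cultures were paired by cell line. E10 minus E14 deviations correlated with a median r of 0.11 (-0.22 to 0.64, 28 pairs) and P2 minus U937T with r = -0.24. The number of arrays limits the precision. The pipeline was tested on simulated data. A log2 change of 1 was recovered in 62% of probe sets in the EVI1-specific comparison and 91% in the clones at 48 h. In the simulation 100 probe sets changed by 1 and 100 by 2 log2 units, in the clones without tet at 48 h only. Of the unchanged probe sets, 7 were called in the EVI1-specific comparison and 11 in the clones. The data held far more called probe sets, so these shares need not carry over to them. The plan was to name all probe sets of the 7 oxidase genes, the 3 genes most like each, and up to 4 members of each pathway list with an EVI1-specific call. FCGR2A and the list genes without such a call were added after their values were seen. These genes and lists were chosen with earlier results of these data known. Alternatives changed the filter, centring, variance model, block, arrays and unit of the fit.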

Additional observations from a re-analysis of the deposited data

Results flagged for a closer look

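2 results stood out because the effect of tet withdrawal differed between groups of arrays by a test of the difference itself. For NCF4 (207677_s_at) the response at 48 h was larger in E10 and E14 than in P2 and U937T by 0.78 ± 0.16 (SE, limma, adjusted p = 0.022), with responses of 1.52 in E10 and 1.54 in E14, against 0.93 in P2 and 0.58 in U937T. This call was kept in 10 of 15 alternatives. The other NCF4 probe set (205147_x_at) was not called (0.57, limma, adjusted p = 0.088). For NCF1 (214084_x_at) the response in the EVI1 clones was larger at 48 h than at 24 h by 2.09 ± 0.25 (SE, limma, adjusted p = 0.0015), in both clones. That call was kept in 11 of 14 alternatives. The control lines were measured at 48 h only, so the same change over time could not be tested in them.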

How the results depend on the processing

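No called value of an oxidase probe set changed sign under any alternative run, while 31 of 938 values without a call did. The filter, variance model, block and unit of the fit leave the estimates as they are. Only centring, the covariate or leaving out arrays could therefore change a sign. NCF1, both NCF4 probe sets, CYBA 203028_s_at and RAC2 213603_s_at kept their calls in the EVI1 clones at 48 h under every alternative run. In P2 and U937T NCF1 and NCF4 205147_x_at kept theirs. For the EVI1-specific comparison, 1 oxidase probe set was called. This was 2 with an intensity trend and robust variance, 2 with the 3′ to 5′ covariate, 0 with the 48 h arrays alone, 0 on leaving out the 4 E14 arrays at 12 and 24 h, and 0 to 2 without 1 line. Over all probe sets the 1049 EVI1-specific calls became 330 with the 48 h arrays alone, 544 without those E14 arrays and 80 to 535 without 1 line. The 8748 calls of the clones at 48 h became 5477 with 1 probe set per gene and 2928 to 8875 without 1 line. For the control lines, the 5 oxidase calls became 2 to 4 without 1 line, and the 2108 calls over all probe sets became 856 (48 h arrays alone), 1208 (without those E14 arrays) and 342 to 670 (without 1 line). For the clones at 24 h, the 6 oxidase calls became 2 without those E14 arrays and 1 to 6 without 1 line, and the 4179 calls became 862 and 548 to 4238. For the change between 24 and 48 h, the 1 oxidase call became 3 with a mean log2 of at least 5, 2 with 1 probe set per gene, 3 with the intensity trend, 0 without those E14 arrays, 4 with the covariate, 2 from the 10 differences and 0 to 2 without 1 line, and the 580 calls became 64 without those E14 arrays and 11 to 538 without 1 line. For 48 h against 6 h with tet, the 1 oxidase call became 2 without those E14 arrays and 0 to 1 without 1 line, and the 2205 calls became 1280 (1 probe set per gene), 748 (covariate) and 186 to 2264 (without 1 line). The cause of these changes was not tested. Several alternatives left fewer residual degrees of freedom than the 8 of the main fit. These were 4 without those E14 arrays, 2 with the 48 h arrays alone and 1 without E10 or without E14. The setting with 1 probe set per gene tests fewer features.

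With no replicate block (cell lines not paired) the oxidase calls were 1, 6 and 5 in the EVI1-specific, clone and control comparisons at 48 h, as with the block, over 904, 8157 and 1895 calls in all. A crossed block for the control lines also gave 1, 6 and 5. Values near the filter limit, as for CYBB 233538_s_at and RAC1 1567457_at, have little signal over background, which limits what the arrays could show there.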
